A study of Drosophila melanogaster with 12 samples.

Results

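RNA was compared between Hinfp mutant and control guts of male Drosophila melanogaster in the 4 libraries whose titles carry the tag PE, out of 12 libraries in the series. They are 1 library each of the Hinfp2 deletion mutant (DelMut), the Hinfp3 point mutant (PointMut), the FRT19A control and the W1118 control, and were chosen by their titles. All came from pharate adults, flies fully formed but still in the pupal case, and the tissue was the gut with its attached Malpighian tubules, about 50 guts pooled per sample. Flies were kept at 25 °C, and the series' design text gives 8 to 9 days of age for mutants and 5 to 6 days for controls. Genotype and age cannot be told apart. The design text gives a full genotype (Y/Hinfp2 and Y/FRT19A, each with +/+ autosomes) for the deletion mutant and for FRT19A, and none for the point mutant or W1118. Each genotype also has 1 library tagged SE, and those 4 SE libraries serve here only to ask whether a change recurs. The labels do not spell out either tag, describe the library preparation as poly-A selection in one field and removal of ribosomal RNA in another, and say nothing of separate cultures. P-values measure the spread between the deletion and point mutant libraries and between the FRT19A and W1118 libraries. That spread includes any difference of allele or control strain, and may also be technical in part. Each genotype has 1 library per tag, so these sources cannot be told apart.

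Hinfp is a zinc finger protein whose vertebrate counterpart, histone nuclear factor P, binds the promoters of histone H4 genes. Histone genes of the replication-dependent class are transcribed in S phase, and most of their transcripts end in a stem-loop bound by Slbp in place of a poly-A tail, so they are recovered poorly from libraries primed or selected on poly-A. In Drosophila they lie in a tandem array in which each repeat carries the genes for the linker histone H1 and the core histones H2A, H2B, H3 and H4. Linker histone H1 binds DNA between nucleosomes and in flies is needed to silence transposable elements. The midgut epithelium holds absorptive enterocytes, hormone-secreting enteroendocrine cells and progenitors, surrounded by visceral muscle. In male flies the testes, accessory glands and ejaculatory duct lie beside the hindgut in the abdomen, so a dissection can carry their RNA.

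The PE libraries held 21924226 gene counts in the deletion mutant and 23308946 in the point mutant, against 26869670 in FRT19A and 26123328 in W1118. The signal recognition particle, which docks secreted proteins at the membrane, has 7SL RNA as its core, and the 2 genes of 7SL RNA took 6.85% and 7.46% of these counts in the deletion and point mutants, against 5.28% in FRT19A and 6.58% in W1118. In the SE libraries their share was at most 0.000195%. The same held for the 5 histone types, which took 0.0770% and 0.0851% of counts in the deletion and point PE libraries, against 0.150% in each PE control, and no more than 0.00293% in any SE library. Within PE, libraries of the same class were close: the median gene differed by 0.16 on the log2 scale between the 2 mutants and by 0.18 between the 2 controls, against 0.50 to 0.53 between a mutant and a control. Counting error was small beside these gaps: the exact binomial interval of the histone share in the deletion PE library ran from 0.0759% to 0.0782%.

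The PE libraries also stood apart from one another in RNA of reproductive tissue. A list of 30 spermatid and sperm genes summed to 995.8 and 1241 CPM (gene counts scaled to a common library total) in the deletion and point PE libraries, against 98.1 in FRT19A and 73.8 in W1118. In the SE libraries the same list summed to 2714 and 1916 CPM in the deletion and point mutants, against 1168 in FRT19A and 2121 in W1118, so both PE controls lay far below every other library. A list of 24 accessory gland genes summed to 472.2 and 213.6 CPM in the deletion and point PE libraries, against 7.15 in FRT19A and 202.9 in W1118. In SE it summed to 4.09 and 354.3 CPM in the deletion and point mutants, against 3.24 in FRT19A and 853.3 in W1118. Testis RNA and accessory gland RNA did not go together in PE, since W1118 had the second at the level of a mutant and little of the first. In pooled tissue, fewer cells of a type and less RNA per cell cannot be told apart.

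Hinfp, the mutated gene, stands on the X chromosome at 625542 to 628016, plus strand (BDGP6 annotation). It had 124 and 220 counts in the deletion and point PE libraries, against 363 in FRT19A and 406 in W1118, or 5.66 and 9.44 CPM in the mutants, against 13.5 and 15.5 CPM in FRT19A and W1118. Both mutants lay below both controls, and the deletion library still held reads of the gene. The log2 fold change of mutants over controls was -1.05 with a standard error of 0.30, which did not pass the test at 0.05 (edgeR quasi-likelihood, Benjamini-Hochberg adjusted p = 0.0532). DESeq2 gave an adjusted p = 0.0231. With 1 library left out, edgeR gave adjusted p = 0.165 without the deletion library, 0.0929 without the point library, 0.0201 without FRT19A and 0.0387 without W1118, and DESeq2 gave 0.453 without the deletion and 0.0372 without the point library. The log2 fold change was -0.72 without the deletion library and -1.50 without the point library. Elsewhere a gene is said to have risen or fallen where its edgeR adjusted p was under 0.05. In SE libraries the log2 fold change was -0.62.

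The linker histone fell furthest of the 5 histone types. HIS1, the row that pools the H1 gene copies, had 8 and 41 counts in the deletion and point PE libraries, against 3999 in FRT19A and 5281 in W1118. In CPM these are 0.365 and 1.76 in the mutants, against 149 and 202 in FRT19A and W1118, so the mutants held 0.605% of the mean control level. The fold change was -7.45 on the log2 scale, with a standard error of 0.72 and an edgeR adjusted p = 0.0075. The edgeR call was lost with 1 mutant library left out (adjusted p = 0.11 without the deletion and 0.088 without the point library), where DESeq2 gave adjusted p = 5.36e-53 and 6.17e-44. In SE libraries HIS1 had 19 and 3 counts in the deletion and point mutants, against 166 in FRT19A and 136 in W1118, and again no control lay near a mutant.

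The core histones fell by far less or did not pass the test. HIS2A had 5260 and 6096 counts in the deletion and point PE libraries, against 10757 in FRT19A and 10930 in W1118 (log2 fold change -0.81, standard error 0.11, edgeR adjusted p = 0.0107). HIS2B had 7381 and 8141 counts in the mutants, against 18376 and 15569 counts in FRT19A and W1118 (log2 fold change -1.01, standard error 0.14, edgeR adjusted p = 0.0109). HIS3 had 1339 and 1798 counts in the deletion and point mutants, against 2825 and 3055 in FRT19A and W1118 (log2 fold change -0.79, standard error 0.15, edgeR adjusted p = 0.0212). For these 3 types both mutants lay at about the same level and under both controls. HIS4, the type whose genes the vertebrate factor binds, had 2898 and 3770 counts in the deletion and point mutants, against 4316 in FRT19A and 4387 in W1118, and its log2 fold change of -0.27 did not pass (standard error 0.14, edgeR adjusted p = 0.193). Of the 5 types 4 therefore fell and none rose, in a comparison in which 16.9% of all genes tested fell and 22.7% rose.

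The test of the difference separated PE from SE for a pair of core histones. HIS2B had 293 and 225 counts in the deletion and point SE libraries, against 236 in FRT19A and 239 in W1118, and its change was lower in PE than in SE by -1.31 on the log2 scale (edgeR adjusted p = 0.0338). HIS3 had 19 and 13 counts in the deletion and point SE libraries, against 6 in FRT19A and 7 in W1118, with a difference of -2.25 (edgeR adjusted p = 0.0187). SE counts of HIS3 are too few to describe a level. For HIS1 the difference of -3.85 did not pass (edgeR adjusted p = 0.142). The annotation places 23 H1 copies on chromosome 2L between 21416953 and 21537368, with 20 to 23 copies of each core type. How the rows pool these near-identical copies is not given in the sources used here, so reads may be shared among copies.

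**Figure D1:**
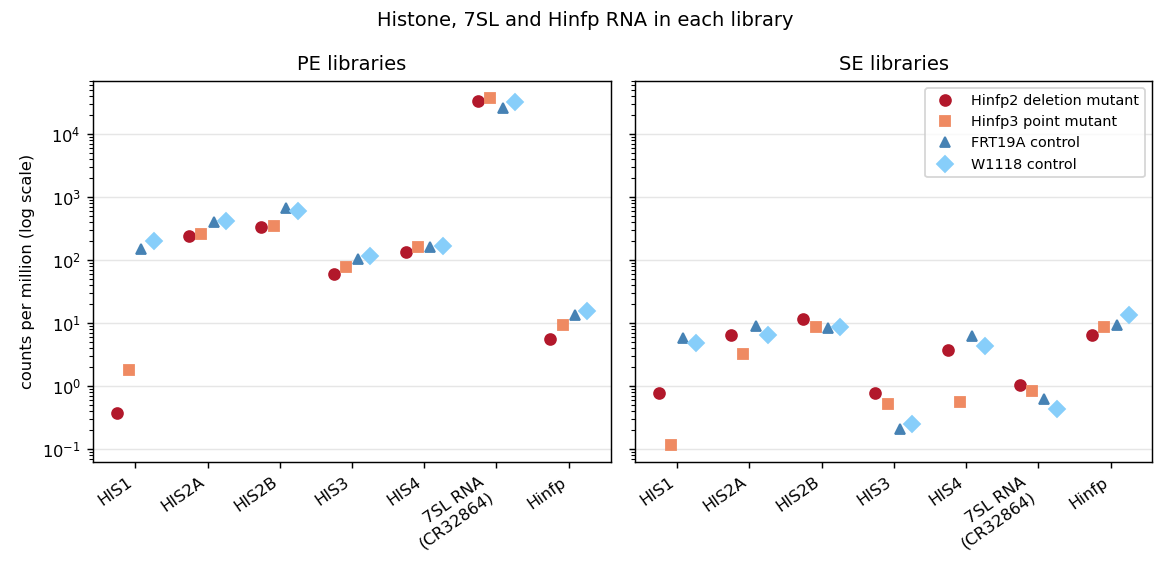
CPM (log axis) of the 5 histone rows, 7SL RNA and Hinfp in each library, with PE libraries in the left group and SE libraries in the right group and mutants left of controls. HIS1 stood at 0.365 and 1.76 CPM in the PE mutants, against 149 and 202 CPM in the PE controls, whereas the 4 core types moved far less.

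Histone genes outside the replication-dependent set moved in both directions. Histone pseudogene rows were singled out after their values were seen. Of 6 tested, 2 fell and none rose, with a median log2 fold change of -0.52. The largest fall was that of His-Psi:CR31614, at the edge of the array (chromosome 2L, 21542864 to 21543688). It had 0 counts in the deletion library and 1 in the point library, against 74 in FRT19A and 94 in W1118. The mutants held 0.00697 of the control level by these counts, with a 95% counting interval of 0.000176 to 0.0394. His2Av, the H2A variant, fell with 948 and 1028 counts in the deletion and point mutants, against 2114 in FRT19A and 2035 in W1118 (log2 fold change -0.95, edgeR adjusted p = 0.00777). BigH1, a linker histone of the germ line and early embryo, had 11 and 20 counts in the deletion and point PE mutants, against 1 in FRT19A and 0 in W1118 (edgeR adjusted p = 0.0218). That is 36.3 times the control level, with a counting interval of 6.05 to 1480. In SE it stood at 2.17 and 1.40 CPM in the deletion and point mutants, against 1.39 in FRT19A and 1.58 in W1118, so the groups overlapped there. The H3.3 genes His3.3A and His3.3B did not pass, with log2 fold changes of -0.23 and -0.08.

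Of 9 factors of histone gene regulation, 1 rose and 2 fell, in a comparison in which 22.7% of all genes tested rose and 16.9% fell. Hers, a repressor of histone genes, had 4073 and 3229 counts in the deletion and point mutants, against 2128 in FRT19A and 1865 in W1118 (log2 fold change 1.0, edgeR adjusted p = 0.0177). Lsm11, a U7 particle protein of histone 3′ end processing, had 88 and 79 counts in the mutants, against 175 and 185 in FRT19A and W1118 (log2 fold change -0.98, edgeR adjusted p = 0.028). Slbp, the stem-loop binding protein, had 168 and 163 counts in the mutants, against 266 and 296 counts in FRT19A and W1118, and fell by 0.64 on the log2 scale (edgeR adjusted p = 0.0483), a call lost under every other scaling tried, with adjusted p up to 0.0802. The scaffold mxc and the H1 promoter factor Trf2 had log2 fold changes of 0.19 and -0.04 and did not pass.

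7SL RNA differed between the PE groups by less than the spread. CR32864, at 6822500 to 6822798 of chromosome 3R (plus strand), had 749146 and 868286 counts in the deletion and point mutants, against 708677 in FRT19A and 857775 in W1118. The log2 fold change was 0.17 with a standard error of 0.34 (edgeR adjusted p = 0.725) and turned to -0.02 without FRT19A. CR42652, its near-identical copy on the minus strand at 6820131 to 6820429, gave almost the same counts, so reads of the copies cannot be told apart. RNase MRP RNA, 7SK and RNase P RNA did not pass either. RNase MRP RNA stood at 2498 and 2272 CPM in the deletion and point mutants, against 1801 in FRT19A and 1633 in W1118. For 7SK the levels were 1542 and 1454 CPM in the mutants, against 1103 and 1022 CPM in FRT19A and W1118, and for RNase P RNA 1238 and 1228 CPM in the mutants, against 1361 and 1124 CPM in FRT19A and W1118. DESeq2 called 2 of these 5 abundant RNAs higher. Among the proteins of the same particle and its receptor, 5 of 8 fell and none rose: Srp19, SrpRbeta, Srp68, SrpRalpha and Srp72 had log2 fold changes of -0.84, -0.63, -0.60, -0.58 and -0.48.

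Small RNAs of the spliceosome and the nucleolus, nearly missing from SE, were also counted in PE. Of 21 small nuclear RNA genes tested, 9 rose and none fell, with a median log2 fold change of 1.04. U1 at 95Cb, which recognises the 5′ splice site, had 1923 and 2170 counts in the deletion and point mutants, against 953 in FRT19A and 1203 in W1118 (log2 fold change 1.05, edgeR adjusted p = 0.0117). Of 170 small nucleolar RNA genes tested, 26 rose and 4 fell, with a median of 0.28, against a median of 0.01 over all 12308 genes. Over all genes tested 22.7% rose, and the 26 are a smaller share of their class than that. Several small nuclear RNA genes are near-identical copies, and their counts are uncertain for that reason.

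Across the transcriptome 2797 genes rose (22.7%) and 2078 fell (16.9%) in the PE mutants, of 12308 tested. The counts of each gene list are to be read beside these shares. These calls rest on both mutant libraries. With 1 mutant library left out, edgeR called 0 genes, with 3835 genes at an unadjusted p under 0.05 without the deletion library and 4000 without the point library. DESeq2 then called 1153 higher and 638 lower without the deletion library, and 1037 higher and 846 lower without the point library. All 4816 and 4791 of the original calls still tested kept their direction. Without FRT19A edgeR called 3203 genes higher and 2668 lower, and without W1118 3251 higher and 2541 lower. In the SE libraries alone edgeR called 0 of 12474 genes (0%), with 3046 at an unadjusted p under 0.05, and DESeq2 called 826 higher and 792 lower.

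The SE libraries show how far the PE calls recur. A gene is called apart in SE where both SE mutants lie on 1 side of both SE controls. Of the 2078 that fell, 1785 (85.9%) also had both SE mutants below both SE controls, a state found in 30.9% of all genes tested. Their median log2 fold change was -0.90 in PE and -0.68 in SE. Of the 2797 that rose, 1562 (55.8%) had both SE mutants above both SE controls, against 26.5% of all genes, and their median was 3.27 in PE and 0.60 in SE. The number of a list's falls or rises that were apart in SE is to be read beside 85.9% and 55.8%. The test of the difference called 769 genes higher in PE than in SE (5.81% of 13244) and 35 lower (0.264%). The 769 became 0 without the point PE or the point SE library (edgeR, with 1720 and 1729 genes at an unadjusted p under 0.05; DESeq2 was not run for this test). They became 109 without the deletion PE library, 22 without the deletion SE library and 384 without the W1118 SE library.

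A set of 760 genes that rose in PE also passed that test of the difference. Of them 669 (88%) lay under 1 CPM in both PE controls, against 57.7% of all 2797 that rose and 46.4% of the other 2037. The median level of the 760 was 4.11 and 5.15 CPM in the deletion and point PE libraries, against 0.186 in FRT19A and 0.115 in W1118. In the SE libraries it was 11.5 and 8.07 CPM in the deletion and point mutants, against 5.11 in FRT19A and 8.45 in W1118. The PE controls stood far under the other 6 libraries, a pattern that choosing genes by a larger rise in PE favours. Among the 760 were 23 members of the spermatid list. The other 2037 genes that rose had a median log2 fold change of 2.23 in PE and 0.67 in SE.

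**Figure D2:**
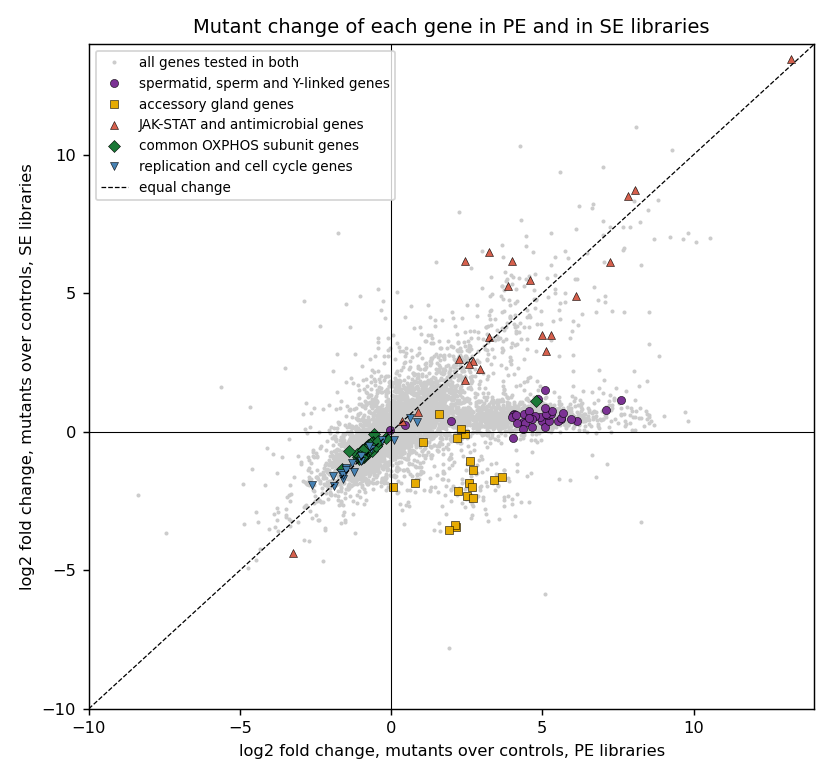
Log2 fold change of mutants over controls in PE libraries (horizontal axis) and in SE libraries (vertical axis) for each gene, with members of named lists coloured. Spermatid genes spread to the right at about the same height (median 4.72 in PE and 0.47 in SE), whereas JAK-STAT genes rise along both axes (median 3.62 in PE and 3.41 in SE).

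Spermatid and sperm genes rose almost throughout in PE. Of 30 tested, 28 rose and none fell, with a median log2 fold change of 4.72. Mst87F, a structural protein of the sperm tail, had 1056 and 1237 counts in the deletion and point PE libraries, against 29 in FRT19A and 22 in W1118 (log2 fold change 5.60, standard error 0.20, edgeR adjusted p = 0.00721). Don juan (dj), a protein of the sperm nucleus and tail, had 897 and 1038 counts in the mutants, against 53 and 48 counts in FRT19A and W1118 (log2 fold change 4.38, standard error 0.15, edgeR adjusted p = 0.00721). Mst84Dd, of the same tail protein family as Mst87F, had 478 and 610 counts in the mutants, against 11 and 8 in FRT19A and W1118 (5.94), and ocn, a testis protein, had 1205 and 1403 in the mutants, against 38 and 19 in FRT19A and W1118 (5.63). In each of these 4 genes the mutants were alike and lay far above both controls, which differed most in ocn.

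In the SE libraries the levels lay closer together, and 7 of the 28 genes that rose were apart there, against 26.5% of all genes tested. Mst87F stood there at 72.4 and 57.0 CPM in the deletion and point mutants, against 38.2 in FRT19A and 54.3 in W1118, and dj at 99.8 and 65.8 CPM in the mutants, against 50.0 and 76.7 CPM in FRT19A and W1118. The list's SE median was 0.47, and 23 of its members differed between PE and SE in the direct test, with differences of 5.08 for Mst87F, 3.95 for dj, 5.43 for Mst84Dd and 5.07 for ocn. That count was 0 without the point PE or the point SE library, 7 without the deletion PE library, 3 without the deletion SE library, 15 without the W1118 SE library and 23 to 27 without 1 of the others. The part of testis tissue carried along in dissection was not tested. The 2 members that did not pass, bol and fzo, are a meiotic translation factor and a mitochondrial fusion protein. For bol the levels were 47.5 and 50.6 CPM in the deletion and point PE libraries, against 43.2 in FRT19A and 51.2 in W1118. DESeq2 called 28 members with all 4 libraries, 27 without the deletion and 25 without the point library.

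Genes acting earlier in the male germ line followed with smaller numbers. Of 13 testis transcription regulators 9 were tested, and 5 rose: sa, Taf12L, topi, bgcn and bam. Members with few control counts, such as sa and Taf12L, entered the test through the mutants alone, so the 5 of 9 was partly set by the filter. The whole list summed to 53.96 and 42.52 CPM in the deletion and point PE libraries, against 44.06 in FRT19A and 37.17 in W1118, so the groups overlapped. The gene sa (spermatocyte arrest), a testis form of a general transcription factor subunit, had 18 and 24 counts in the deletion and point mutants, against 1 in FRT19A and 2 in W1118. Bam, which drives the switch of spermatogonia to differentiation, had 26 and 48 counts in the mutants, against 4 and 10 counts in FRT19A and W1118 (log2 fold change 2.5, edgeR adjusted p = 0.0372). DESeq2 called the same number, 5, with all libraries and none without either mutant library.

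All 9 tested Y-linked fertility genes rose. The male-specific dynein heavy chain gene kl-2 had 161 and 164 counts in the deletion and point PE libraries, against 7 in FRT19A and 5 in W1118 (log2 fold change 4.85, standard error 0.33, edgeR adjusted p = 0.00721). Its relative kl-3 had 156 and 145 counts in the mutants, against 6 and 2 counts in FRT19A and W1118 (5.31), and kl-5 had 95 and 165 in the mutants, against 7 and 1 in FRT19A and W1118 (5.09). The aldehyde reductase gene ARY had 56 and 51 counts in the mutants, against 2 in FRT19A and 0 in W1118, a ratio of 62.7 with a counting interval of 16.9 to 524. The list summed to 26.6 and 29.9 CPM in the deletion and point PE libraries, against 1.12 in FRT19A and 0.344 in W1118, and in SE to 27.8 and 25.3 CPM in the mutants, against 7.03 and 25.2 CPM in FRT19A and W1118. Only ARY, CCY and Pp1-Y2 passed the test of the difference from SE. Of all 50 Y-chromosome genes tested in PE, 50 rose. A gene could enter the test through its mutant counts alone. Y-linked genes nearly silent in the PE controls were thus tested only where the mutants were higher. The 9 of 9 and the 50 of 50 were therefore partly set by the filter.

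Stellate, an X-linked repeat family silenced in the male germ line by piRNAs from the Y chromosome, was represented by 1 tested member. SteXh:CG42398 had 402 and 466 counts in the deletion and point PE libraries, against 2 in FRT19A and 0 in W1118. The ratio was 508, with a counting interval of 140 to 4210, and edgeR gave an adjusted p = 0.00721. In SE it had 364 and 460 counts in the deletion and point mutants, against 5 in FRT19A and 2 in W1118. It was apart in both kinds of library. Stellate copies share reads, so the count of this row is uncertain.

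**Figure D3:**
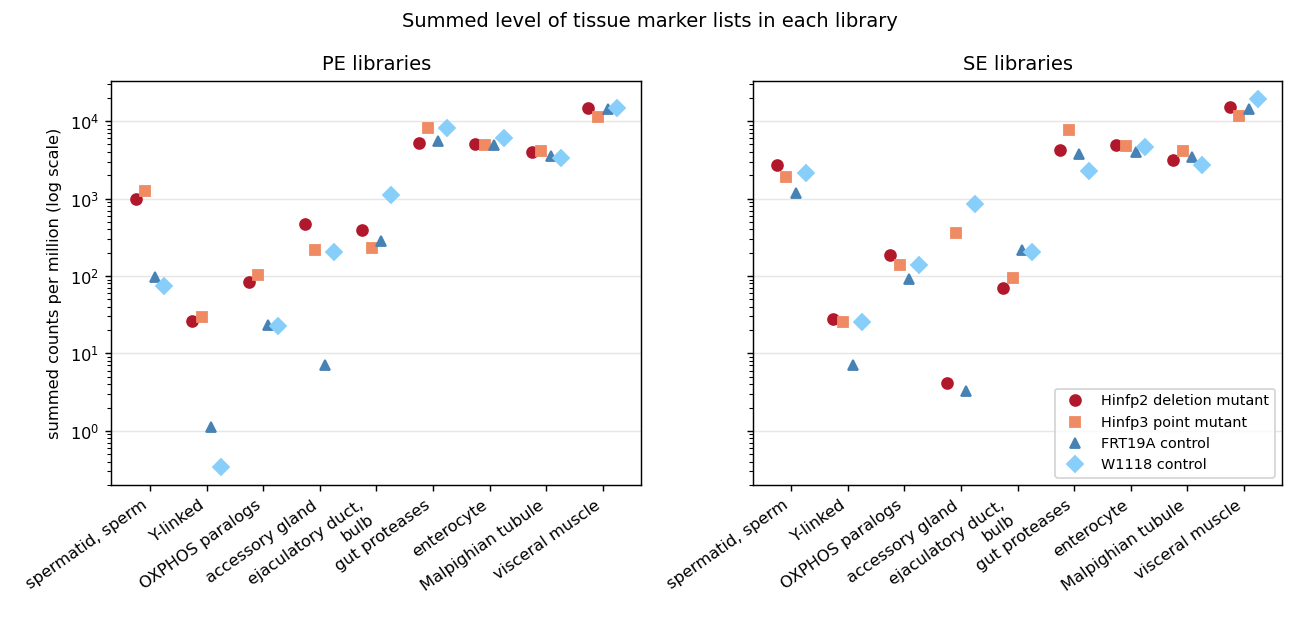
Summed CPM of 9 gene lists in each library, PE libraries in one panel and SE libraries in the other, mutants left of controls. The spermatid list stands at 995.8 and 1241 CPM in the PE mutants, against 98.1 and 73.8 CPM in the PE controls, whereas in SE both controls reach at least 1168 CPM.

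Respiratory chain genes were split by name alone. Those with symbols ending in L, or in L and a digit, were taken as paralogs, and the rest as common subunits. Whether each paralog is a testis form was not tested. The paralogs mostly rose and the common subunits mostly fell. Of 24 paralogs of mitochondrial respiratory chain subunits, 19 rose and 1 fell (UQCR-11L, log2 fold change -0.76), with a median of 4.29 in PE and 0.54 in SE. COX6AL2, a copy of a cytochrome c oxidase subunit, had 124 and 190 counts in the deletion and point mutants, against 1 in FRT19A and 3 in W1118 (log2 fold change 6.32, standard error 0.54, edgeR adjusted p = 0.00726). SdhCL, a copy of a succinate dehydrogenase anchor subunit, had 128 and 140 counts in the mutants, against 7 and 3 counts in FRT19A and W1118 (4.83). ND-B14.5AL had 40 and 57 counts in the mutants, against 0 in FRT19A and 1 in W1118, and UQCR-6.4L had 27 and 37 in the mutants, against 2 and 1 in FRT19A and W1118. Paralogs with few control counts, such as ND-B14.5AL, could enter the test through the mutants alone. The direct test against SE called 9 of these paralogs.

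The common subunits of the same chain fell almost throughout. Of 64 tested, 61 fell and 1 rose, with a median log2 fold change of -0.80 in PE and -0.66 in SE. ND-AGGG of complex I had 1901 and 1814 counts in the deletion and point mutants, against 5611 in FRT19A and 7005 in W1118 (-1.64, standard error 0.15, edgeR adjusted p = 0.00744). SdhC, the common form of SdhCL, had 1866 and 2004 counts in the mutants, against 4528 and 4475 counts in FRT19A and W1118 (-1.10), and UQCR-14 of complex III had 3430 and 3687 in the mutants, against 9011 and 9259 in FRT19A and W1118 (-1.24). UQCR-11, also of complex III, fell by 1.38. The member that rose, ND-B8, had 26 and 32 counts in the mutants, against 2 and 0 in FRT19A and W1118. Of the 61 that fell, 59 were also apart in SE, beside 85.9% of all genes that fell in PE. DESeq2 called 62 lower with all libraries, 19 without the deletion library and 44 without the point library.

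Proteasome and ribosome genes were counted in the same way. Of 13 testis paralogs of proteasome subunits 11 rose, with a median of 3.73: Prosbeta4R2 had 84 and 95 counts in the deletion and point mutants, against 2 in FRT19A and 1 in W1118, and Rpn12R had 107 and 115 in the mutants, against 9 and 9 in FRT19A and W1118 (3.73, standard error 0.31, edgeR adjusted p = 0.00721). Of 32 common proteasome genes 5 fell and none rose (median -0.20), where 16.9% of all genes tested fell. All 5 calls were lost when scaling used total counts alone. Of 5 germline ribosomal protein paralogs 4 rose. RpS5b had 822 and 1090 counts in the deletion and point PE mutants, against 157 in FRT19A and 55 in W1118 (3.29), and was higher in SE too (3.86), whereas RpL10Aa had 110 and 132 counts in the mutants, against 5 and 3 counts in FRT19A and W1118 (4.99) and 0.50 in SE. Of 82 common ribosomal protein genes 42 fell and none rose, with a median of -0.47 in PE and -0.53 in SE. That number was 22 when scaled on total counts, and DESeq2 gave 61 with all libraries but 5 and 8 without the deletion and the point library.

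**Figure D4:**
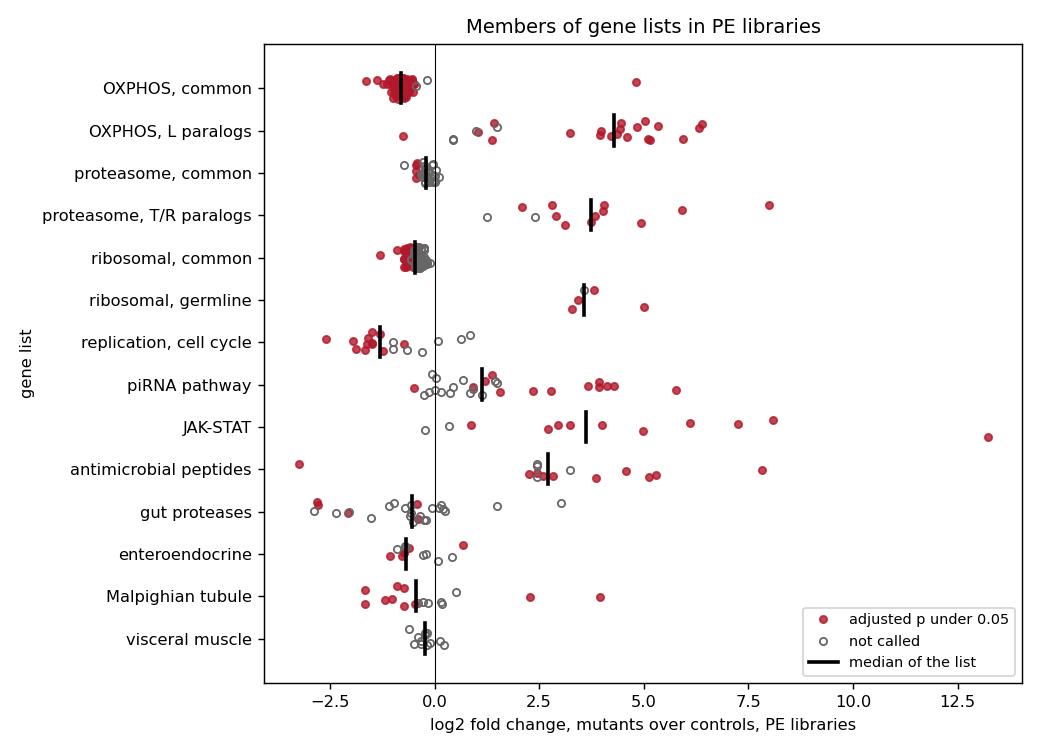
Log2 fold change in PE of each tested member of 14 gene lists, red where the edgeR adjusted p was under 0.05 and open where it was not, with a bar at the list's median. Respiratory chain paralogs, testis proteasome copies and germline ribosomal copies lie to the higher side (medians 4.29, 3.73 and 3.58). Their common forms lie to the lower side (medians -0.80, -0.20 and -0.47).

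In PE, FRT19A held almost no accessory gland RNA, whereas W1118 held it at a level near the point mutant. Of 24 listed, 21 were tested, 1 rose and none fell. Acp36DE, a seminal protein for sperm storage, stood at 147 and 73.4 CPM in the deletion and point PE libraries, against 0.409 in FRT19A and 45.2 in W1118, and did not pass (log2 fold change 2.19, standard error 1.72, edgeR adjusted p = 0.358). Acp26Aa, the ovulation-inducing ovulin, stood at 23.1 and 10.7 CPM in the deletion and point mutants, against 0.0744 and 10.6 CPM in FRT19A and W1118. Sex peptide (SP), which changes female behaviour after mating, stood at 10.6 and 0.772 CPM in the mutants, against 0.0372 and 1.91 CPM in FRT19A and W1118. In all 3 genes FRT19A was the low library, and W1118 lay closer to the point mutant than to FRT19A. The member that rose, intr, had 34 and 27 counts in the deletion and point mutants, against 0 in FRT19A and 5 in W1118 (edgeR adjusted p = 0.0478).

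The accessory gland list depended on which control was kept. Its median log2 fold change was 2.20 with all PE libraries, 1.15 without FRT19A and 7.27 without W1118. DESeq2 called 6 members higher and 2 lower without FRT19A, and 19 higher and none lower without W1118. The list's median was -1.75 in SE, where the deletion mutant and FRT19A had next to none of this RNA. Ejaculatory bulb transcripts were again high in W1118: Ebp, a mating plug protein, stood at 159.5 and 19.1 CPM in the deletion and point PE libraries, against 0.633 in FRT19A and 732.2 in W1118. Among 6 genes of duct and bulb, Gld (glucose dehydrogenase) rose by 1.57 and Est-6 (carboxylesterase) fell by 2.64 on the log2 scale.

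In the JAK-STAT pathway, cytokines from damaged gut cells call on progenitors to divide, and its genes were higher in the mutants in both kinds of library. Of 12 genes tested 10 rose and none fell, with a median log2 fold change of 3.62 in PE and 3.41 in SE, and all 10 were apart in SE. The ligand upd3 had 155 and 123 counts in the deletion and point PE libraries, against 20 in FRT19A and 12 in W1118 (3.24), and upd2 had 66 and 78 in the mutants, against 8 and 12 in FRT19A and W1118 (2.95). The receptor dome had 2655 and 2948 counts in the mutants, against 1710 and 1597 in FRT19A and W1118 (0.88), whereas the kinase hop and the transcription factor Stat92E did not pass (-0.23 and 0.35). Ligands and receptor lay higher in both mutants than in both controls.

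Targets of the pathway showed the largest rises in it. Socs36E, a feedback inhibitor, had 12654 and 11326 counts in the deletion and point PE mutants, against 2193 in FRT19A and 1791 in W1118 (2.71, standard error 0.17, edgeR adjusted p = 0.00721). TotA, a secreted stress peptide, had 5451 and 10492 counts in the mutants, against 35 and 79 counts in FRT19A and W1118 (7.24), and TotC had 9321 and 12211 in the mutants, against 76 and 10 in FRT19A and W1118 (8.08). TotZ (chromosome 3R, 20877736 to 20878363) had 831 and 1469 counts in the mutants and 0 in both controls, at least 898.2-fold higher against a limit of 3 counts over the control group. TotB, TotX and TotM rose by 6.10, 4.98 and 4.0. DESeq2 called 10 genes of the list higher with all libraries and 8 without either mutant library.

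Antimicrobial peptide genes mostly rose, though several did not pass. Of 14 tested, 9 rose and 1 fell, with a median of 2.70 in PE and 4.19 in SE. Drosomycin (Drs), an antifungal peptide, had 2258 and 3966 counts in the deletion and point PE mutants, against 93 in FRT19A and 78 in W1118 (5.30, standard error 0.34, edgeR adjusted p = 0.00721). Its relative Drsl3 had 16338 and 28811 counts in the mutants, against 16 and 200 counts in FRT19A and W1118 (7.82), and Drsl5 and Drsl2 rose by 5.12 and 2.25. AttB and Dro, targets of the Imd pathway, rose by 4.58 and 3.86. Metchnikowin (Mtk) fell: it had 72 and 120 counts in the deletion and point mutants, against 645 in FRT19A and 1325 in W1118 (-3.24, edgeR adjusted p = 0.0115). Each of the 10 was apart in SE in its own direction. DESeq2 called 7 members of the list higher and 1 lower, and 5 higher and 1 lower without either mutant library.

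Among digestive enzymes of enterocytes the shares that fell or rose were near or under those of all genes tested, of which 16.9% fell and 22.7% rose. Of 26 trypsin-like and Jonah proteases 5 fell and none rose, and 1 of the 5 was apart in SE. Jon99Fii had 710 and 900 counts in the deletion and point PE mutants, against 7689 in FRT19A and 4377 in W1118 (-2.79, standard error 0.33, edgeR adjusted p = 0.00852), but its SE log2 fold change was -0.06. Jon99Ci and zetaTry fell by 2.82 and 2.07, and iotaTry and etaTry by 0.43 and 0.40. The list's median of -0.53 in PE turned to 0.10 without W1118, was -1.31 without FRT19A, and was 1.14 in SE, so the list had no common direction. Of 13 carbohydrases 3 rose, and all 3 were apart in SE: the amylases Amy-p (26838 and 44787 counts in the deletion and point mutants, against 17502 in FRT19A and 17095 in W1118) and Amy-d by 1.16 and 1.62, and the maltase Mal-B2 by 0.92.

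Markers of gut cell types were called in 1 of 8 enterocyte genes, 6 of 13 enteroendocrine genes and 1 of 9 progenitor genes. Over all genes tested 22.7% rose and 16.9% fell. Among 8 enterocyte genes ninaD, a scavenger receptor for carotenoids, fell with 2339 and 2604 counts in the deletion and point PE mutants, against 14374 in FRT19A and 21087 in W1118 (-2.72, standard error 0.23, edgeR adjusted p = 0.00721), and it was apart in SE (-1.92). The junction proteins mesh and Tsp2A did not pass (0.32 and 0.33). Among 13 enteroendocrine genes 5 fell and 1 rose. The peptide hormone Tk had 1550 and 1435 counts in the mutants, against 3767 and 3023 in FRT19A and W1118 (-1.06, edgeR adjusted p = 0.0122). AstA, NPF, Orcokinin and the convertase amon fell by 0.74, 0.61, 0.74 and 0.79, and Dh31 rose by 0.69. All 6 were apart in SE in the same direction, beside 85.9% of all genes that fell in PE and 55.8% of those that rose. Among 9 progenitor genes the transcription factor Sox21a rose by 1.16, with 99 and 141 counts in the mutants, against 53 and 63 counts in FRT19A and W1118, and none fell.

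Genes of the acid-secreting copper cell region and of lysozymes rose in 4 of 8 and fell in 1. LysP had 347 and 103 counts in the deletion and point PE mutants, against 3 in FRT19A and 4 in W1118 (6.10, standard error 0.90, edgeR adjusted p = 0.0121), and LysC, LysD and LysX rose by 1.29, 1.36 and 1.31. The lysozyme genes are close relatives and may share reads. The homeobox gene lab, which specifies copper cells, had 110 and 160 counts in the mutants, against 344 and 272 in FRT19A and W1118 (-1.07).

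In the Malpighian tubules, the insect kidney, listed genes moved in both directions. Of 16 tested 2 rose and 8 fell. Urate oxidase (Uro) had 27407 and 29205 counts in the deletion and point PE mutants, against 2462 in FRT19A and 1523 in W1118 (3.95, standard error 0.29, edgeR adjusted p = 0.00721), and the organic anion transporter Oatp58Db had 4377 and 5512 in the mutants, against 1030 and 1164 in FRT19A and W1118 (2.29). The potassium channel Irk3 fell with 5502 and 4569 counts in the mutants, against 19178 and 15726 in FRT19A and W1118 (-1.67, standard error 0.19, edgeR adjusted p = 0.00825). Its relatives Irk1 and Irk2, the chloride channel ClC-a, the aquaporin Drip, the cotransporter Ncc69, Oatp58Da and the transcription factor tup fell by 1.18, 0.47, 1.03, 0.91, 0.74, 0.73 and 1.66. Both genes that rose and 6 of the 8 that fell were apart in SE, beside 55.8% and 85.9% of all genes that rose and fell in PE.

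Genes of neighbouring and supporting tissues were called by edgeR in at most 2 members of each list, where 22.7% of all genes tested rose and 16.9% fell. Of 12 visceral muscle genes edgeR called none, with 1 at an unadjusted p under 0.05, and DESeq2 called 2 lower; Mhc, the myosin heavy chain, had a log2 fold change of -0.40. The fat body proteins Lsp2, a storage protein, and apolpp, a lipid carrier, rose by 3.63 and 2.12, as 2 of 8 tested. Lsp2 had 2256 and 1630 counts in the deletion and point mutants, against 152 in FRT19A and 192 in W1118. Of 6 haemocyte genes only the scavenger receptor crq rose (0.76), and of 5 neuron genes only fne fell (-2.45), on 3 and 2 counts in the mutants, against 11 and 20 counts in FRT19A and W1118, a call DESeq2 did not make.

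DNA replication genes fell together. Of 19 tested 12 fell and none rose, with a median log2 fold change of -1.29 in both PE and SE. All 12 were apart in SE, beside 85.9% of all genes that fell in PE. PCNA, the sliding clamp, had 91 and 118 counts in the deletion and point PE mutants, against 683 in FRT19A and 696 in W1118 (-2.60, standard error 0.17, edgeR adjusted p = 0.00721). RnrL, the large subunit of ribonucleotide reductase, had 625 and 675 counts in the mutants, against 1925 and 2033 counts in FRT19A and W1118 (-1.48). The helicase subunits Mcm3, Mcm5, Mcm2, Mcm7, Mcm6 and dpa (Mcm4) fell by 1.94, 1.88, 1.67, 1.60, 1.5 and 1.49, and the licensing factor dup by 1.29. DESeq2 called 14 lower with all libraries, 8 without the deletion library and 10 without the point library. Replication-dependent histones are expressed in the same phase of the cycle. On the log2 scale the 12 genes fell by 0.74 to 2.60 and HIS1 by 7.45. HIS2A, HIS2B, HIS3 and HIS4 had log2 fold changes of -0.81, -1.01, -0.79 and -0.27, of which the last did not pass. The part of cell division in these changes was not tested.

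Named by size alone, the largest rises after TotZ were of genes with almost no reads in the PE controls. CG30289 had 551 and 375 counts in the deletion and point mutants, against 1 in FRT19A and 0 in W1118, a ratio of 1080 with a counting interval of 194 to 42900. lncRNA:CR46253 had 650 and 591 counts in the mutants, against 1 and 1 counts in FRT19A and W1118, a ratio of 727 (201 to 6010). Dnaaf3, an assembly factor of axonemal dynein, had 444 and 514 counts in the mutants, against 2 and 0 in FRT19A and W1118, a ratio of 561 (155 to 4640). Each was apart in SE as well, with 1357 and 1417 counts in the deletion and point SE mutants, against 8 and 15 in FRT19A and W1118, for lncRNA:CR46253, and 440 and 582 in the mutants, against 60 and 112 in FRT19A and W1118 for Dnaaf3. CG6403 had 1816 and 2547 counts in the PE mutants, against 7 and 10 in FRT19A and W1118 (8.10, standard error 0.29).

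The largest falls beside HIS1 divided into steady and unsteady ones. Ugt37A3, a UDP-glycosyltransferase, had 38 and 45 counts in the deletion and point PE mutants, against 1543 in FRT19A and 1107 in W1118 (-4.87, standard error 0.25, edgeR adjusted p = 0.00721). The cytochrome P450 gene Cyp4d1 had 5 and 24 counts in the mutants, against 364 and 403 counts in FRT19A and W1118 (-4.60), CG7900 had 45 and 34 in the mutants, against 682 and 1229 in FRT19A and W1118 (-4.46), the lysosomal mannosidase LManIII had 372 and 185 in the mutants, against 5051 and 7750 in FRT19A and W1118 (-4.39), and CG9825 had 84 and 106 in the mutants, against 1258 and 2166 in FRT19A and W1118 (-4.05). These 5 were apart in SE too. CG12374 had 52 and 83 counts in the deletion and point mutants, against 1372 in FRT19A and 47180 in W1118, and its log2 fold change of -8.37 was -4.25 without W1118. CG6295 had 27 and 133 counts in the mutants, against 1397 and 7144 counts in FRT19A and W1118 (-5.63, and -4.04 without W1118), and CG5107 had 130 and 151 in the mutants, against 4311 and 3463 in FRT19A and W1118 (-4.67), and both passed the test of the difference from SE, at -7.30 and -5.63. CG16826 had 2 and 1 counts in the mutants, against 400 in FRT19A and 41 in W1118.

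The piRNA pathway, which silences transposable elements in gonads, rose in part. Of 27 genes tested 12 rose and 1 fell (papi, -0.50), with a median of 1.13 in PE and 1.03 in SE, and 11 of the 12 were apart in SE. AGO3, a Piwi-family slicer, had 2312 and 1665 counts in the deletion and point PE mutants, against 38 in FRT19A and 42 in W1118 (5.76, standard error 0.27, edgeR adjusted p = 0.00721). The deadlock gene (del), which licenses piRNA clusters, had 695 and 645 counts in the mutants, against 33 and 41 counts in FRT19A and W1118 (4.30), and mael, needed for transcriptional silencing, had 237 and 285 in the mutants, against 25 and 12 in FRT19A and W1118 (3.93). Aubergine (aub) rose by 2.79, with 322 and 358 counts in the mutants, against 26 and 81 counts in FRT19A and W1118. The founding member piwi rose by 2.34, with 49 and 88 counts in the mutants, against 20 and 9 counts in FRT19A and W1118. The germline helicase vas and the cluster protein rhi were too low to test, at no more than 0.498 and 0.502 CPM in any PE library. DESeq2 called 13 higher with all libraries, 7 without the deletion library and 8 without the point library.

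Of the siRNA pathway, AGO2 rose (10696 and 10810 counts in the deletion and point mutants, against 7296 in FRT19A and 5787 in W1118, 0.84) and r2d2, the partner of Dcr-2, fell (676 and 690 in the mutants, against 1206 and 1692 in FRT19A and W1118, -0.96). Heterochromatin proteins mostly did not pass: of 14 tested ADD1, an HP1 partner, rose by 1.03 and the lamin gene Lam fell by 0.51, a call lost under 3 of the other scalings. HP1a itself stood at 52.7 and 59.5 CPM in the deletion and point mutants, against 61.1 in FRT19A and 59.4 in W1118, a log2 fold change of -0.21 that did not pass.

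Transposable element families rose widely. Element counts came to 21.2% of gene counts in the deletion PE library and 19.7% in the point library, against 2.20% in FRT19A and 6.25% in W1118. In SE they came to 11.7% and 11.0% in the deletion and point mutants, against 0.848% in FRT19A and 2.86% in W1118. Of 143 families tested in PE 83 rose (58%) and 3 fell (2.1%), with a median log2 fold change of 1.56. Of the 83, 81 were also apart in SE, where 77.6% of families were apart in that direction. Unlike for genes, edgeR still called 61 families higher without the deletion library and 60 without the point library. Scaled on the elements themselves, 36 rose and 35 fell, since that scaling sets the typical family to no change.

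By class, 41 of 59 LTR retrotransposons rose and none fell (median 2.27), as did 25 of 34 LINE-like families (median 2.12). Of 22 DNA transposons 9 rose and 1 fell (median 0.38), and of 28 families left unclassified here 8 rose and 2 fell (median 0.23). The LTR family copia supplied 73.1% and 74.5% of element counts in the deletion and point PE libraries, against 14.8% in FRT19A and 69.9% in W1118. It had 3396965 and 3421326 counts in the mutants, against 87319 in FRT19A and 1141179 in W1118, and did not pass (log2 fold change 2.60, standard error 2.31, edgeR adjusted p = 0.384); copia was singled out after its values were seen. Its 2 control levels were far apart, and without FRT19A and without W1118 it was called, at 1.65 and 5.39. All other elements together came to 5.70% and 5.04% of gene counts in the deletion and point mutants, against 1.88% and 1.89% in FRT19A and W1118, so there the 2 controls were alike.

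**Figure D5:**
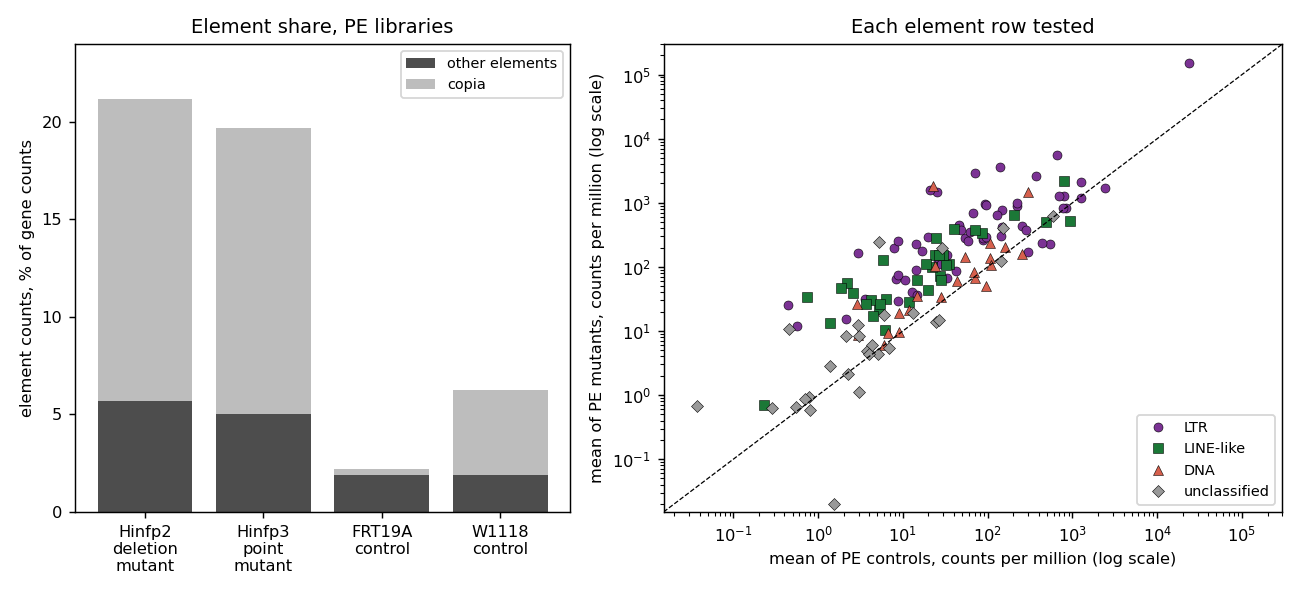
Left, element counts as a percentage of gene counts in each library, copia in light and all other families in dark, mutants left of controls. Right, mean CPM of each family in the PE mutants against the PE controls, coloured by class, with log axes. Other families stood at 5.70% and 5.04% in the PE mutants, against 1.88% and 1.89% in the PE controls.

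The largest rises came from several classes. Bari1, a DNA transposon of the mariner type, had 40451 and 41385 counts in the deletion and point PE libraries, against 557 in FRT19A and 630 in W1118 (log2 fold change 6.23, standard error 0.27, edgeR adjusted p = 0.00105). In SE it had 990 and 659 counts in the deletion and point mutants, against 162 and 230 in FRT19A and W1118, and it was the 1 family of 146 (0.685%) whose rise was called larger in PE, by 3.96. For the LTR families gypsy12 and GATE the difference from SE was not called: gypsy12 had 38096 and 34049 counts in the PE mutants, against 703 and 404 in FRT19A and W1118 (6.15), and GATE had 33625 and 32906 in the mutants, against 670 and 676 in FRT19A and W1118 (5.75). Stalker3 had 742 and 404 counts in the mutants, against 10 and 13 counts in FRT19A and W1118 (5.76).

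In 19 families (13%) the change was called lower in PE than in SE, a count of 5 to 29 when 1 of the 8 libraries was left out. Among the named ones these were aurora_element, with 3363 and 4189 counts in the deletion and point PE mutants, against 67 in FRT19A and 90 in W1118 (5.71 in PE, difference -1.75), and Dsim_ninja, with 4816 and 6076 in the mutants, against 133 and 142 in FRT19A and W1118 (5.43, difference -1.87). The LINE-like G_element had 684 and 845 counts in the mutants, against 16 and 23 counts in FRT19A and W1118 (5.40, difference -2.84). Falls were few: hobo, a DNA transposon, had 1065 and 1179 counts in the mutants, against 2779 and 2285 in FRT19A and W1118 (-1.05, edgeR adjusted p = 0.0107), and Dsub_GEM had 294 and 373 in the mutants, against 724 and 676 in FRT19A and W1118 (-0.95). Hobo was no longer called without either mutant library. Some rows, among them Dsim_ninja and Dsub_GEM, carry the name prefix of another Drosophila species, so their counts may be reads of related families. Families share sequence, and how reads matching several copies were counted is not given in the sources used here.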

How the data were processed

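The authors' deposited tables give raw read counts per gene (16524 rows, of which 16403 matched a symbol) and per transposable element family (159 rows), whole numbers that were used unchanged. The submitters' processing notes name STAR 2.5.3a, featureCounts 1.5.2 and the builds BDGP6 and dm6. Whether counting used strand, and what it did with multi-mapping reads, is not given in the sources used here. Another 116 columns of per-sample values were left unused. Gene coordinates come from the Ensembl annotation of BDGP6.

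Mutant and control PE libraries, 2 against 2, were compared in R 4.3.3 by the quasi-likelihood test of edgeR 4.0.16. Genes were filtered by filterByExpr (count of at least 10) and scaled by TMM. A gene could pass this filter through the counts of 1 group alone. The two-sided p-values were adjusted by Benjamini-Hochberg over all genes tested, at 0.05. Elements were scaled with the gene library sizes and TMM factors and adjusted among themselves. Whether a change differed between PE and SE was tested as the interaction of tag and class over 8 libraries. The standard error is the log2 fold change over the square root of F. CPM is the share of gene counts on a common library total, and PE depth ran from 21924226 to 26869670 gene counts. Intervals are exact (95%) and cover counting error only. "Apart" means that both mutants lie on 1 side of both controls. In data simulated with the same dispersion for all genes, the median fold change estimates came close to the set values. That check does not cover the spread of the real libraries gene by gene.

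Alternatives were other scalings, no filter, DESeq2 1.42.0 (also without each library, a choice made after seeing the data) and leaving out each library. The libraries, 34 gene lists and rules were chosen with earlier results of these data known, so a list's direction is not independent evidence. Named genes were Hinfp, the histone rows and 7SL RNA, the 8 largest rises and falls in PE (mean log2 CPM of at least 2, no overlap), the 6 largest also apart in SE, and up to 4 members per list with the smallest adjusted p. Other members are named to complete a list's count. Histone pseudogene rows were added after their values were seen. For elements the rule took 8 rises and up to 3 falls with a mean log2 CPM of at least 0. The adult libraries were not used here, and no sequence was printed because none was given.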

Additional observations from a re-analysis of the deposited data

Results flagged for a closer look

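Each result here passed the test of the difference between the change in PE and the change in SE libraries (edgeR interaction, Benjamini-Hochberg), so the mutant change was not the same in both kinds of library. Differences are PE minus SE on the log2 scale.

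The core histones HIS2B and HIS3 had differences of -1.31 and -2.25. Among testis transcripts the differences were 3.95 for dj, 5.08 for Mst87F, 5.43 for Mst84Dd, 5.07 for ocn and 4.97 for the Y-linked ARY. Paralogs of respiratory chain genes had differences of 5.69 (COX6AL2), 4.11 (SdhCL), 6.30 (ND-B14.5AL) and 4.37 (UQCR-6.4L). Copies of proteasome genes had differences of 5.37 (Prosbeta4R2), 3.3 (Rpn12R), 3.32 (Prosalpha4T2) and 3.52 (Rpt3R), and copies of ribosomal protein genes 4.45 (RpL10Aa) and 3.43 (RpS19b). All of these testis, paralog and germline genes stood lowest in both PE controls, which choosing genes by a larger rise in PE favours. Beside them, lncRNA:CR32661 had a difference of 3.92, the pseudogene CR45772 of 5.10 and Dnaaf3 of 6.08.

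CG6295 and CG5107 fell in PE with differences of -7.30 and -5.63. In SE, CG6295 had 586 and 1254 counts in the deletion and point mutants, against 158 in FRT19A and 530 in W1118. Among elements Bari1 had a difference of 3.96, and aurora_element, Dsim_ninja and G_element had differences of -1.75, -1.87 and -2.84.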

How the results depend on the processing

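No paired analysis was possible because the 4 PE libraries all carry replicate number 2. Without each PE library in turn, edgeR called 0 to 3251 genes higher and 0 to 2668 lower. DESeq2 called 1153 higher and 638 lower without the deletion library, and 1037 higher and 846 lower without the point library. Elements gave 60 to 104 higher and 1 to 12 lower, and 36 higher and 35 lower when scaled on themselves. The test of PE against SE gave 0 to 943 genes higher and 0 to 117 lower, and 1 to 4 elements higher and 5 to 29 lower. Of the 4875 gene calls, 4459 to 4763 were shared by the 4 other scalings. Total counts alone moved the median gene by 0.106. With 7SL and histone rows out of the denominator, spermatid genes took 0.107% and 0.134% of counts in the deletion and point mutants, against 0.0104% in FRT19A and 0.00791% in W1118. Accessory gland genes then took 0.0507% and 0.0231% in the deletion and point mutants, against 0.000756% in FRT19A and 0.0218% in W1118. The direction turned for 7SLRNA:CR32864 (-0.0208) and 7SLRNA:CR42652 (-0.021) without FRT19A, with ranges up to 0.2903 and 0.2911 over the libraries left out. It turned for bt without the deletion library and without FRT19A (-0.1277 and -0.0238, range up to 0.3342), and for His-Psi:CR33867 with total counts (0.0149) and without the deletion library (0.1383, range down to -0.3845). None of the 4 was called. The causes were not tested. With 1 library per genotype, differences between the 2 alleles or the 2 control strains have no replicate. SE counts of histone, 7SL and small nuclear RNAs are too few to describe their levels.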

Other observations

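On chromosome 4, the small and largely heterochromatic autosome, 91 genes were tested in PE, of which 6 rose (6.59%) and 27 fell (29.7%), against 15.7% to 17.7% that fell and 17.9% to 25.4% that rose on the X chromosome and the arms of chromosomes 2 and 3. No test of this difference was made.

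RNA classes outside the lists were counted beside all genes tested, of which 22.7% rose and 16.9% fell. Of 617 noncoding RNA genes tested 184 rose and 26 fell, with a median log2 fold change of 0.48. Of the 184 that rose, 114 were apart in SE, beside 55.8% of all genes that rose. Of 140 pseudogenes tested 43 rose and 10 fell (median 0.43). lncRNA:CR32661 had 324 and 446 counts in the deletion and point PE libraries, against 19 in FRT19A and 14 in W1118. In SE it stood at 54.3 and 38.4 CPM in the deletion and point mutants, against 21.0 in FRT19A and 36.7 in W1118, so the point mutant lay just above W1118 there.

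Ribosomal RNA took 0.0670% and 0.0578% of gene counts in the deletion and point PE libraries, against 0.0748% in FRT19A and 0.124% in W1118. It took at most 9.22e-05% in the SE libraries.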
